A study of Homo sapiens with 6 samples.

Results

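Oxidative phosphorylation genes encode the subunits of the respiratory chain and of ATP synthase, and 96 of the 63677 genes counted in RPMI8226 multiple myeloma cells belonged to this group. Members were chosen by name. Genes called NDUF, SDH, UQCR, CYC1, COX5 to COX8 or ATP5 were taken from the nuclear genome, and the protein genes MT-ND, MT-CO, MT-ATP and MT-CYB from the mitochondrial genome. Of these, 83 were nuclear and 13 mitochondrial. By complex, 44 belonged to complex I, 4 to complex II, 10 to complex III, 17 to complex IV and 21 to complex V. A further 51 pseudogenes with matching names were left out. RPMI8226 is an established human plasma cell cancer line, labelled wild type. All cells received 100 nM of recombinant protein for 6 hr. The control group received glutathione-S-transferase (GST) alone, and the other group received GST-PTR1, in which GST is joined to the PTR1 domain of HAPLN1, a link protein of the extracellular matrix. Each treatment had 3 libraries, labelled as biological replicates, and all came from this 1 cell line.

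Complexes I to IV pass electrons from NADH and succinate to oxygen, and complexes I, III and IV pump protons across the inner mitochondrial membrane as they do so. Complex V, the ATP synthase, lets the protons flow back and makes ATP. The mitochondrial genome encodes core subunits of complexes I, III, IV and V, while every subunit of complex II is nuclear. Both genomes must therefore supply parts to the same machines. Antibody-secreting plasma cells and myeloma cells draw on this pathway for much of their energy.

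The libraries held between 15202503 and 44688737 counts. Those totals belong to the GST library numbered 3 and to the GST-PTR1 library numbered 4 in the deposited column names, which carry the numbers 3, 4 and 5 for GST and 2, 4 and 5 for GST-PTR1. Levels are given as CPM, a gene's counts divided by the TMM-scaled library size in units of 1e+06 counts, and differences as log2 fold changes of GST-PTR1 over GST from edgeR's quasi-likelihood test, with p-values adjusted over the 16926 genes tested. Plasma cell markers were present in every library, among them JCHAIN at 1942 CPM or more and CD38 at 152 CPM or more. Of the other cell type markers, those of T cells, CD3D, CD3E and CD3G, did not pass 0.12 CPM and the myeloid markers CD14, CSF1R, FCGR3A, ITGAM and LYZ did not pass 0.84 CPM. HBB was at or near 0, HBA1 and HBA2 lay between 1.30 and 3.11 CPM, and COL1A1 reached 0.481 CPM with the other stromal genes at or near 0, while NCAM1 at 38.8 to 82.4 CPM and EPCAM at 61.5 to 76.9 CPM were also measured in these cells. NCAM1 was lower after GST-PTR1 (adjusted p = 0.0424, edgeR). Of the 9 plasma cell markers, 3 were higher, SLAMF7 (log2 fold change 1.52), PRDM1 (1.35) and IRF4 (0.65), and 3 lower, TNFRSF17 (-1.41), SDC1 (-1.03) and XBP1 (-0.47). The part of these markers in the results here was not tested.

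Few single oxidative phosphorylation genes passed the test. Of the 92 members tested, 3 were higher after GST-PTR1 and 0 lower, where 9.15% of all genes tested were higher and 11.4% lower. The 3 were SDHD of complex II, UQCRFS1 of complex III and the mitochondrial gene MT-ND6 of complex I. None of the 3 reached 2-fold, where 3.68% of all genes tested were higher and 3.85% lower by that much. At an unadjusted p under 0.05, edgeR called 12 members higher and 0 lower, where 16.5% of all genes tested were higher and 18.8% lower. DESeq2 and limma's voom also called 3 higher and 0 lower. With the filter on low counts relaxed to at least 1 count in any library, edgeR called 34 members higher and 0 lower, where 8.25% and 7.29% of the genes then tested were higher and lower. In bulk RNA, more cells of a kind and more RNA per cell cannot be told apart.

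The members leaned one way together while staying under the threshold. Log2 fold changes were positive in 86 of the 92 and negative in 6, and ranged from -0.14 for NDUFC1 to 0.64 for ATP5MGL. Their median was 0.28, against 0.01 over all genes tested, of which 50.7% had a positive value. The median was 0.28 in nuclear and 0.21 in mitochondrial members. By complex, it was 0.22 in complex I, 0.23 in complex II, 0.27 in complex III, 0.35 in complex IV and 0.28 in complex V.

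**Figure D1:**
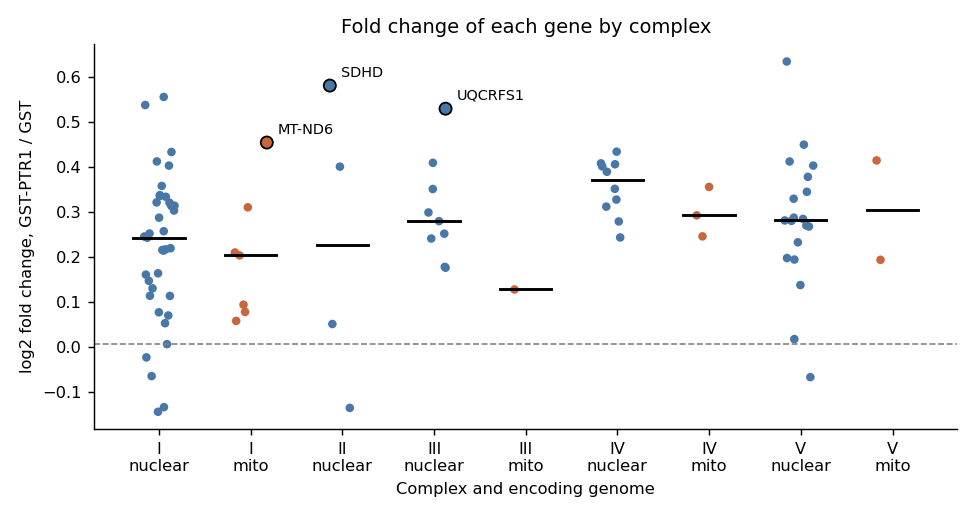
Log2 fold change of GST-PTR1 over GST (vertical axis) for each of the 92 members tested, by complex and encoding genome (blue, nuclear; orange, mitochondrial). Bars are medians, the dashed line is the median of all genes tested (0.01), and the 3 outlined, named points passed an adjusted p of 0.05. Most points lie above the dashed line and below 0.5.

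The lean differed between libraries. Relative to the mean of the GST libraries, the median member stood at -0.21 (log2) in GST library 3, 0.11 in GST library 4 and 0.10 in GST library 5. It stood at 0.06 in GST-PTR1 library 2, 0.56 in library 4 and 0.16 in library 5. In the 79 nuclear members tested the medians were -0.20, 0.12 and 0.08 in GST libraries 3, 4 and 5 and 0.07, 0.59 and 0.14 in GST-PTR1 libraries 2, 4 and 5, so that GST-PTR1 library 4 stood apart. In the 13 mitochondrial members they were -0.29, 0.02 and 0.23 in GST and -0.16, 0.44 and 0.36 in GST-PTR1, with GST-PTR1 libraries 4 and 5 close together. Of the 13, 7 were highest in GST-PTR1 library 4 and 6 in library 5. GST-PTR1 library 4 held the highest value of 79 of the 92 members, where it held the highest value of 26.4% of all genes tested. GST library 3 held the lowest value of 71 members, where the share over all genes tested was 27.3%. These are the libraries with the most and the fewest counts. The part of depth in the lean was not tested.

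**Figure D2:**
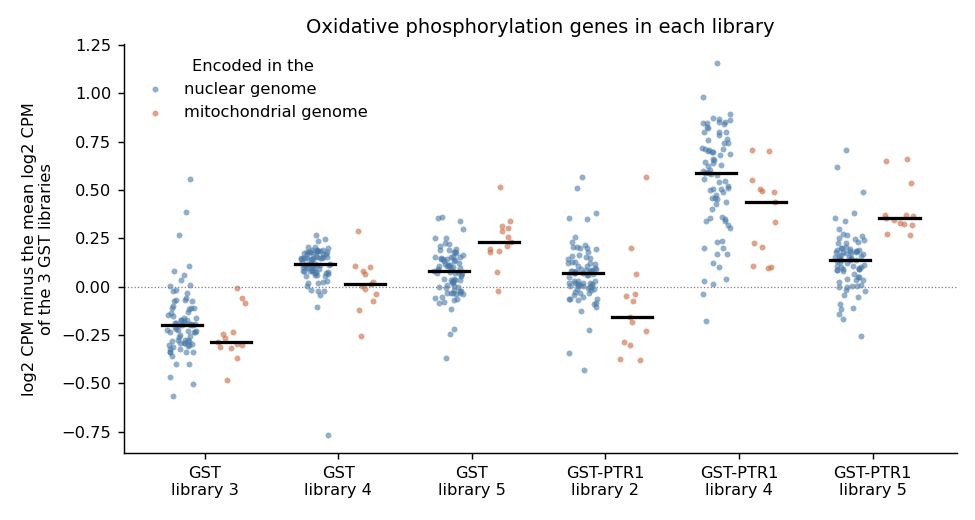
Log2 CPM of each of the 92 members tested minus its mean over the 3 GST libraries (vertical axis), in each library (horizontal axis), for nuclear (blue) and mitochondrial (orange) genes, with bars at the medians. Nuclear members sit highest in GST-PTR1 library 4 and lowest in GST library 3.

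Without GST-PTR1 library 4, the members' median log2 fold change was 0.10, and 2 members were higher and 0 lower, where 7.13% and 6.97% of all genes tested were higher and lower. With any other 1 library left out it lay between 0.17 and 0.39. With GST library 3 left out as well as GST-PTR1 library 4, the median was 0.00, with 46 members positive and 46 negative. That pair was chosen after most members were seen to be lowest in the one and highest in the other, so that the median had to shrink. In that fit of 4 libraries, SDHD, MT-ND6 and NDUFV2 were higher and NDUFC1 and ATP5IF1 lower, where 10.2% and 9.35% of all genes tested were higher and lower. When library totals replaced the TMM factors, the median of all genes tested moved by -0.20 to -0.19. The members' median was then 0.07, with 64 positive and 28 negative, and SDHD was higher and NDUFS7 lower, where 5.48% and 22.4% of all genes tested were higher and lower. The distance between the members' median and that of all genes was thus similar under both scalings.

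**Figure D3:**
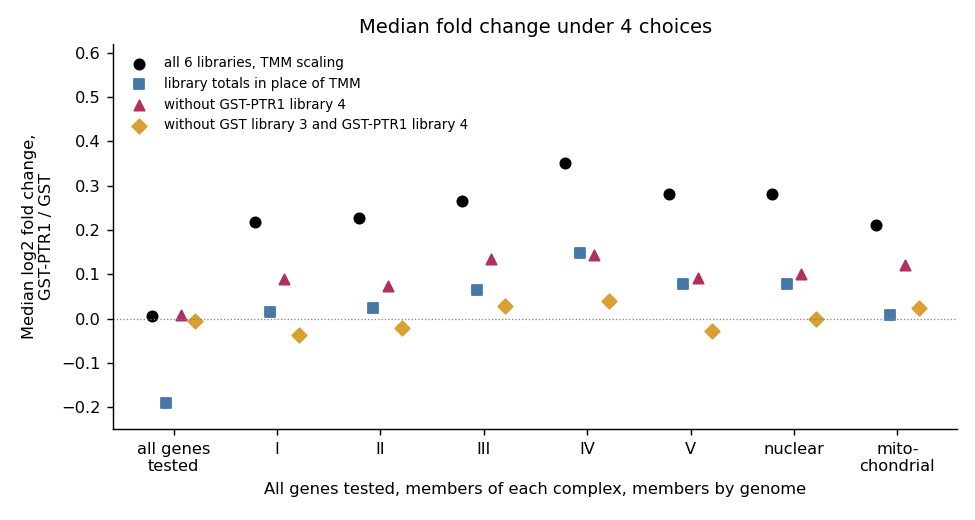
Median log2 fold change of GST-PTR1 over GST (vertical axis) for all genes tested, for the members of each complex and for members by genome, under 4 choices. The members' medians are highest with all 6 libraries and TMM scaling (black), and lie between -0.04 and 0.04 without GST library 3 and GST-PTR1 library 4 (yellow diamonds).

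Complex II, succinate dehydrogenase, carries SDHD, 1 of the 3 members called, and SDHA, 1 of the 6 members with a negative log2 fold change. The complex oxidizes succinate in the citric acid cycle and hands the electrons to ubiquinone. SDHD, one of its membrane anchors (ENSG00000204370, GRCh37 chr11:111957497-111990353), measured 77.1, 89.3 and 99.5 CPM in GST libraries 3, 4 and 5, and 113, 162 and 124 CPM in GST-PTR1 libraries 2, 4 and 5. All 3 GST-PTR1 libraries lay above all 3 GST libraries. The means were 88.6 ± 11.2 and 132.7 ± 25.7 CPM (SD, n = 3 each). The log2 fold change was 0.58 (SE 0.15, adjusted p = 0.0177, edgeR). Of the alternative fits, 16 of 17 also called SDHD higher, with adjusted p-values between 2.7e-05 and 0.0653. The fit without GST library 4 did not (log2 fold change 0.59, adjusted p = 0.0653, edgeR). Of the bases in SDHD's exons, 15% are shared with the gene ENSG00000255292, and reads there were not counted.

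The other 3 genes of complex II did not pass the test. SDHA, the flavoprotein that holds the succinate site, measured 267, 244 and 233.85 CPM in GST libraries 3, 4 and 5, and 233.80, 219 and 225 CPM in GST-PTR1 libraries 2, 4 and 5. Its GST-PTR1 values all lay just below its GST values (log2 fold change -0.13, SE 0.10, adjusted p = 0.361, edgeR). It was the only member whose groups separated downward, where 21.2% of all genes tested did so. SDHB, the iron-sulfur subunit, measured 121, 158 and 174 CPM in GST and 158, 263 and 177 CPM in GST-PTR1 (0.40, adjusted p = 0.159, edgeR), so that only GST-PTR1 library 4 stood clear of the GST range by more than a few CPM. SDHC, the other anchor, was at 91.2 ± 5.24 CPM in GST and 94.5 ± 10.1 CPM in GST-PTR1 (0.05, adjusted p = 0.765, edgeR).

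The make-up of complex II counts within a library does not depend on scaling. SDHD took 13.98%, 15.2% and 16.7% of the counts of the 4 complex II genes in GST libraries 3, 4 and 5. In GST-PTR1 libraries 2, 4 and 5 it took 19.1%, 21.6% and 19.96%. The groups did not overlap, and the shift from 15.3 ± 1.34% to 20.2 ± 1.25% (SD, n = 3 each) was larger than the spread within each. SDHD was looked at here because these same counts gave its call, so the share is no separate support for that call. SDHA took 48.4%, 41.5% and 39.2% in GST and 39.7%, 29.3% and 36.3% in GST-PTR1, and these overlapped.

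**Figure D4:**
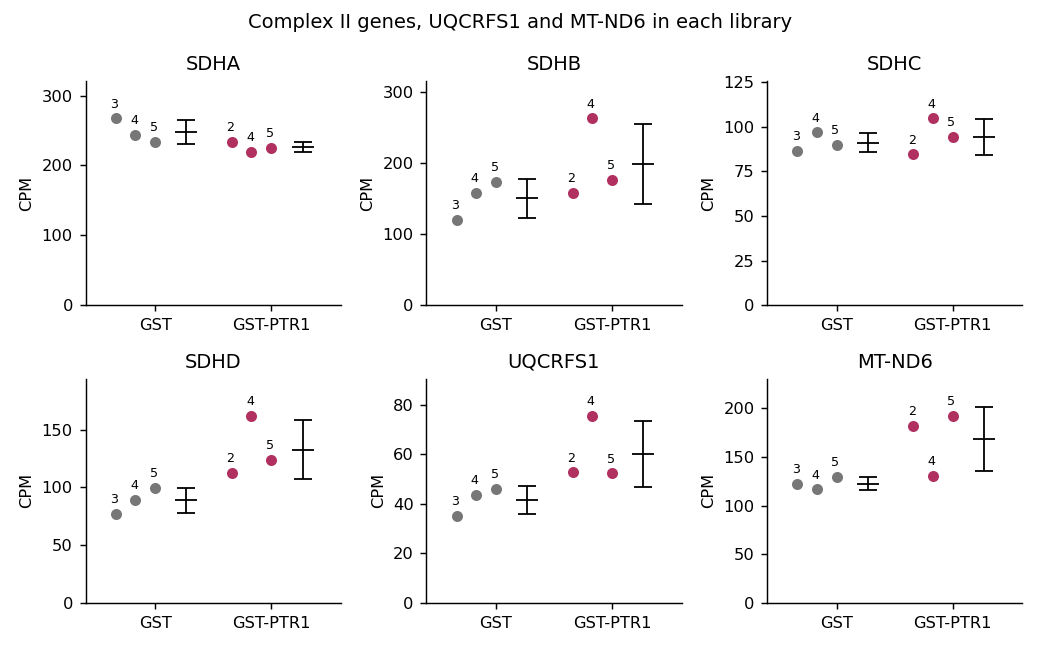
CPM (vertical axes, from 0) of the 4 complex II genes, UQCRFS1 and MT-ND6 in each GST (grey) and GST-PTR1 (red) library, with the library's number above its point and mean ± SD (n = 3) beside the points. SDHD and UQCRFS1 separate between treatments with library 4 highest, whereas GST-PTR1 library 4 is the lowest of its group for MT-ND6.

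Complex III moves electrons from ubiquinol to cytochrome c, and 10 of its 10 genes had positive log2 fold changes with TMM scaling, with 3 of them negative under library totals. UQCRFS1, the Rieske iron-sulfur protein of the complex (ENSG00000169021, chr19:29698173-29704448), measured 35.2, 43.7 and 46.1 CPM in GST libraries 3, 4 and 5, and 52.7, 75.5 and 52.3 CPM in GST-PTR1 libraries 2, 4 and 5. All GST-PTR1 values lay above all GST values, and library 4 was well above the others. The log2 fold change was 0.53 (SE 0.16, adjusted p = 0.0382, edgeR). UQCRFS1 took 2.92% to 3.16% of the counts of the nuclear complex III genes in GST and 3.45% to 3.70% in GST-PTR1, again with no overlap. This share too comes from the counts that gave the call. Its call was less steady than SDHD's, being made in 11 of 17 alternative fits. It was lost with library totals (adjusted p = 0.106, edgeR), without any 1 of the 3 GST libraries, without GST-PTR1 library 4 (adjusted p = 0.122, edgeR) and without both GST library 3 and GST-PTR1 library 4 (adjusted p = 0.128, edgeR).

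No other gene of complex III passed the test. UQCRC1, a core subunit, had the smallest nuclear value of the complex, at 186 ± 13.2 CPM in GST and 210.2 ± 21.1 CPM in GST-PTR1 (log2 fold change 0.18, adjusted p = 0.276, edgeR). Groups did not overlap, with GST-PTR1 higher, for 5 of the 9 nuclear genes of the complex. These were CYC1, the cytochrome c1 subunit, UQCRC1, UQCRC2, UQCRFS1 and UQCRQ. Over all genes tested, 19.2% separated upward in this way, and over all members 11 of 92 did.

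Complex I, the NADH dehydrogenase and entry point of most electrons, held 37 nuclear genes, and 0 of them passed the test in either direction by edgeR. At an unadjusted p under 0.05, 3 of the 37 were higher and 0 lower, where 16.5% and 18.8% of all genes tested were. The median log2 fold change of the 37 was 0.24. Some core catalytic subunits lay near 0. NDUFS1, which carries iron-sulfur clusters, had a log2 fold change of -0.02, and NDUFV1, which binds NADH, 0.08. NDUFV1 measured 286, 305 and 279.8 CPM in GST and 312, 316 and 291 CPM in GST-PTR1, with overlapping groups. NDUFC1, a small accessory subunit, had the lowest value. It measured 40.5, 55.2 and 59.6 CPM in GST libraries 3, 4 and 5 and 37.9, 59.9 and 42.8 CPM in GST-PTR1 libraries 2, 4 and 5. Its log2 fold change was -0.14 (SE 0.18) with all libraries and -0.51 (adjusted p = 0.00242, edgeR) without GST library 3 and GST-PTR1 library 4. Those libraries, picked after seeing the data, held its lowest GST and its highest GST-PTR1 value, so that leaving them out by itself lowers the fold change.

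The largest nuclear values of complex I came from thinly counted genes. NDUFA7, an accessory subunit, had a log2 fold change of 0.56 (SE 0.31, adjusted p = 0.223, edgeR) from 8 to 11 counts in the GST libraries and 13 to 26 in the GST-PTR1 libraries. NDUFV2, another iron-sulfur subunit, followed at 0.54 (adjusted p = 0.0766, edgeR), with 67 to 101 counts in GST and 135 to 228 in GST-PTR1. The treatments did not overlap for either gene. Other genes share 28.95% of the exon bases of NDUFA7 and 28.4% of those of NDUFV2, and reads over those bases were not counted. NDUFA4, named for complex I and now regarded as a complex IV subunit, measured 94.0 ± 10.2 CPM in GST and 120 ± 28.3 CPM in GST-PTR1 (0.36, adjusted p = 0.127, edgeR).

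Complex IV, cytochrome c oxidase, reduces oxygen to water. Every one of its 13 tested genes had a positive log2 fold change, under library totals as well as TMM scaling. With TMM they ran from 0.24 for COX5A to 0.43 for COX6C, and all 13 were highest in GST-PTR1 library 4. None passed the test by edgeR in either direction. At an unadjusted p under 0.05, 2 of the 13 were higher and 0 lower, where 16.5% and 18.8% of all genes tested were. COX6C, a small structural subunit, measured 71.3, 112 and 129.6 CPM in GST libraries 3, 4 and 5, and 102, 199 and 122 CPM in GST-PTR1 libraries 2, 4 and 5. Apart from library 4, its GST-PTR1 values lay inside the GST range. Without GST library 3 and GST-PTR1 library 4, its log2 fold change was -0.11. COX5A measured 283, 361 and 319 CPM in GST and 367, 411 and 364 CPM in GST-PTR1. It was the only complex IV gene whose groups did not overlap (0.24, SE 0.12, adjusted p = 0.167, edgeR), where 19.2% of all genes tested separated upward.

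The cells used the widely expressed isoforms of complex IV subunits. COX6A2 and COX7A1, the heart and muscle forms, were at 0 counts in every library, which allows up to 0.180 CPM in GST library 3 and 0.0761 CPM in GST-PTR1 library 4. COX6B2 and COX8C, known from testis, had at most 2 counts in a library. Their partners COX6A1, COX7A2, COX6B1 and COX8A measured 96.6, 148, 167 and 232 CPM in GST. An exception was COX7B2, also known as a testis form, at 3.46 ± 0.46 CPM in GST and 4.40 ± 0.84 CPM in GST-PTR1. Its partner COX7B was at 276 ± 29.2 and 367 ± 112 CPM. COX6A2, COX6B2, COX7A1 and COX8C were the only members under the filter on low counts.

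Complex V genes included the most abundant nuclear transcripts of the pathway by CPM. ATP5F1A and ATP5F1B, the alpha and beta subunits that form the catalytic head, measured 977 ± 161 and 792 ± 89.5 CPM in GST, and 1121 ± 201 and 931 ± 135 CPM in GST-PTR1. Of 21 genes, 20 had positive log2 fold changes (6 were negative under library totals) and 0 passed the test by edgeR. At an unadjusted p under 0.05, 3 of the 21 were higher and 0 lower, where 16.5% and 18.8% of all genes tested were. The negative value with TMM scaling was that of ATP5IF1, which is no subunit but the inhibitor that keeps the synthase from running in reverse. ATP5IF1 measured 172, 206 and 196 CPM in GST libraries 3, 4 and 5 and 163, 215 and 169.9 CPM in GST-PTR1 libraries 2, 4 and 5 (-0.07, SE 0.13). Without GST library 3 and GST-PTR1 library 4 it was lower (-0.27, adjusted p = 0.033, edgeR). That fit leaves out its lowest GST and its highest GST-PTR1 value, a pair of libraries chosen after seeing the data, which by itself lowers the fold change. ATP5MGL, a near-copy of the subunit gene ATP5MG, had the largest value (0.64, SE 0.43, adjusted p = 0.314, edgeR), but only 6 to 36 counts in a library, and reads of near-identical copies cannot be fully assigned.

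The 13 mitochondrial genes made up a larger part of the counts than the 83 nuclear members. They took 5.39%, 6.47% and 7.43% of all counts in GST libraries 3, 4 and 5, and 5.46%, 7.0% and 7.05% in GST-PTR1 libraries 2, 4 and 5. The exact 95% binomial interval of the first was 5.38% to 5.40%, and such intervals cover counting error only. The means of 6.43 ± 1.02% and 6.50 ± 0.90% (SD, n = 3 each) differed by 0.073 percentage points, far less than the spread within a treatment. Nuclear members took 1.02%, 1.23% and 1.19% in GST and 1.08%, 1.37% and 1.10% in GST-PTR1. Mitochondrial counts exceeded nuclear ones by a ratio of 5.61 ± 0.55 in GST and 5.53 ± 0.77 in GST-PTR1, with overlapping groups.

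Per length, 12 of the 13 mitochondrial genes stood above every nuclear member. In GST, MT-CO2, MT-CO3 and MT-CO1, the catalytic core of complex IV, led with 10708 ± 1936, 9942 ± 1655 and 9542 ± 1462 RPKM (SD, n = 3). These spreads are between libraries and overlap, and the 3 genes were not compared within libraries. MT-ND6 was last at 233 ± 12.1 RPKM, below the nuclear genes COX8A, ATP5F1B and NDUFS5. Nuclear members had a median of 40.9 RPKM and reached 458 RPKM for COX8A.

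MT-ND6 is the only protein gene that the mitochondrial genome transcribes from the light strand, and it was the only mitochondrial member to pass the test. It lies at MT:14149-14673 on the minus strand. It measured 122, 117 and 129 CPM in GST libraries 3, 4 and 5, and 182, 131 and 192 CPM in GST-PTR1 libraries 2, 4 and 5. GST-PTR1 library 4 lay just above the highest GST value, and the other GST-PTR1 libraries lay far above it. GST-PTR1 library 4, which held the highest value of 72 of the 79 nuclear members tested, thus held the lowest GST-PTR1 value of MT-ND6. The log2 fold change was 0.46 (SE 0.14, adjusted p = 0.0412, edgeR), and it was 0.62 (adjusted p = 0.00193, edgeR) without GST-PTR1 library 4. Only 8 of 17 alternative fits called it, and without GST-PTR1 library 5 the log2 fold change was 0.35 (adjusted p = 0.154, edgeR). As a share of mitochondrial protein-gene counts, MT-ND6 made up 0.248%, 0.191% and 0.183% in GST and 0.324%, 0.165% and 0.258% in GST-PTR1, and there the groups overlapped. The part of the strand or of the mRNA library kit in the call of MT-ND6 was not tested.

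None of the 12 heavy-strand genes passed the test by edgeR, also at an unadjusted p under 0.05. Of all genes tested, 16.5% were higher and 18.8% lower at that p. With TMM scaling, the log2 fold changes of the 12 lay between 0.06 for MT-ND4 and 0.42 for MT-ATP8. With library totals, 7 of the 12 were positive and 5 negative. Their median was then 0.005, where that of all genes tested was -0.19. MT-CO1, the largest contributor at 23.7% to 29.9% of mitochondrial protein-gene counts, measured 12394, 14855 and 16895 CPM in GST libraries 3, 4 and 5. In GST-PTR1 libraries 2, 4 and 5 it measured 16756, 19743 and 17600 CPM (0.29, adjusted p = 0.222, edgeR). Library 2 lay within the GST range and the other GST-PTR1 libraries above it. MT-CO2 (0.36), MT-ND3 (0.31), MT-CO3 (0.25), MT-ND4L (0.21), MT-ND2 (0.20) and MT-ATP6 (0.19) had log2 fold changes between these bounds. So did MT-CYB (0.13), MT-ND1 (0.09) and MT-ND5 (0.08). MT-ATP8 shares 22.2% of its bases with MT-ATP6, so reads over the shared part were not counted for either. The mitochondrial ribosomal RNA genes MT-RNR1 and MT-RNR2 both had a log2 fold change of 0.27 (adjusted p = 0.403 and 0.314, edgeR).

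**Figure D5:**
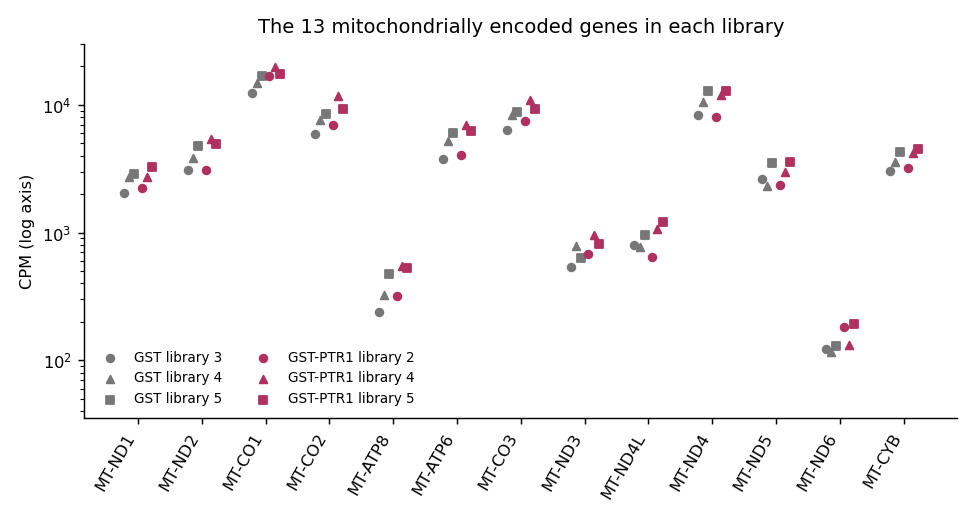
CPM (log axis) of each of the 13 mitochondrially encoded genes, in order along the mitochondrial genome, in GST (grey) and GST-PTR1 (red) libraries. For the 12 heavy-strand genes the treatments overlap, while the 3 GST-PTR1 values of MT-ND6 (131 to 192 CPM) lie above its GST values (117 to 129 CPM).

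Nuclear respiratory genes are known to share promoter motifs for NRF1, for GABP of the ETS family and for YY1. RefSeq promoters of the build GRCh38.p14, each 300 bases long with 250 before and 50 after the start, matched 67 of the 83 nuclear members. The NRF1 motif, a palindrome-like run of 10 bases searched on both strands like the others, was in 17 of the 67 (25.4%), against 6.28% of 27305 promoters. The GABP motif CCGGAAG was in 19 (28.4%, against 10.7%), and the YY1 motif ATGGCGGC in 12 (17.9%, against 3.21%). The motif of NF-κB, the factor family that HAPLN1's PTR1 domain is known to activate, was in 2 members, ATP5MC1 and UQCRC2 (2.99%, against 1.92%). A match to letters is a description and no evidence of binding.

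The promoters of the 2 called nuclear genes are shown beside that of SDHA, the complex II gene whose values went the other way. Each line gives the 150 bases before the start, 5′ to 3′ on the gene's strand, with motif matches in capitals. They lie at chr11:112086723-112086872 (plus strand) for SDHD, chr19:29213152-29213301 (minus strand) for UQCRFS1 and chr5:218170-218319 (plus strand) for SDHA.
SDHD: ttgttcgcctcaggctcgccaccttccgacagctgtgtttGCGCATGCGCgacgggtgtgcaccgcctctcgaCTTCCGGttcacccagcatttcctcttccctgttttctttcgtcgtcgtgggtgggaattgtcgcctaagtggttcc
UQCRFS1: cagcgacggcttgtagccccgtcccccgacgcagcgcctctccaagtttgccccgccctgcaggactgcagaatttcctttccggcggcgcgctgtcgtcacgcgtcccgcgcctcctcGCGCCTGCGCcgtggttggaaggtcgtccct
SDHA: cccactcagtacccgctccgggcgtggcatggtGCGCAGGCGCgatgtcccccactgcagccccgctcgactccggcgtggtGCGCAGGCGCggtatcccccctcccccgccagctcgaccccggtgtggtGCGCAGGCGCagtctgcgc
SDHD holds 1 NRF1 match followed by 1 GABP match on the opposite strand, UQCRFS1 holds 1 NRF1 match, and SDHA holds 4 NRF1 matches in its whole window, of which 3 lie in the bases shown. SDHA did not pass the test (log2 fold change -0.13, adjusted p = 0.361, edgeR), and the part of these matches in the levels was not tested.

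Genes around the respiratory chain were counted from lists chosen like the members. Of those tested, 19 were higher and 3 lower, where 9.15% and 11.4% of all genes tested were. The number tested is given with each list, and these 2 counts are not read as a difference from all genes. Among 17 electron carriers and ubiquinone genes, 2 were higher and 1 lower, and their median log2 fold change was -0.01. CYCS, which encodes cytochrome c, measured 116, 149.6 and 158 CPM in GST libraries 3, 4 and 5, and 198, 254 and 205 CPM in GST-PTR1 libraries 2, 4 and 5, with no overlap (0.63, SE 0.14, adjusted p = 0.00981, edgeR). PDSS1, which builds the tail of ubiquinone, rose as well (0.50, adjusted p = 0.0145, edgeR), but not with library totals (adjusted p = 0.0816, edgeR). COQ10A, a ubiquinone-binding protein, fell from 9.75 ± 0.87 to 5.99 ± 0.57 CPM (-0.69, adjusted p = 0.0071, edgeR).

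Single assembly factors passed the test. Log2 fold changes were positive in 13 of 16 complex I factors (median 0.23) and 16 of 20 complex IV factors (median 0.13). GST-PTR1 library 4 held the highest value of 11 and 15 of these, where the share over all genes tested was 26.4%. Without GST library 3 and GST-PTR1 library 4 both medians were -0.05. The medians of complex II, III and V factors were -0.02, -0.01 and -0.18 with all libraries. TMEM70, which helps assemble ATP synthase, rose by 0.74 (adjusted p = 0.00525, edgeR), and was the only one of 4 complex V factors to do so. NDUFAF8 was the only one of 16 complex I factors called higher (0.60, adjusted p = 0.023, edgeR). The call was lost with library totals, without GST library 5 and without GST-PTR1 library 4. Of 20 complex IV factors, COX19 (0.47, adjusted p = 0.0263, edgeR) and COA4 (0.44, adjusted p = 0.0456, edgeR) were called higher. Both calls were lost with library totals (adjusted p = 0.165 and 0.179, edgeR), where 0 of the 20 were higher and 2 lower. With 1 library left out, COX19 was called only without GST library 5 and COA4 only without GST-PTR1 library 2. None of 4 complex II and 6 complex III factors passed in either direction by edgeR, also at an unadjusted p under 0.05.

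Of 75 mitochondrial ribosomal protein genes, 7 (9.33%) were higher and 0 lower by edgeR, where 9.15% and 11.4% of all genes tested were. At an unadjusted p under 0.05, 24 were higher and 0 lower, where 16.5% and 18.8% of all genes tested were. The list's median log2 fold change was 0.24. MRPL39 measured 33.2, 43.7 and 44.1 CPM in GST and 69.8, 111 and 85.9 CPM in GST-PTR1 (1.14, adjusted p = 9.1e-04, edgeR). MRPL32 (0.64) and MRPL50 (0.53) also rose, the latter not with library totals nor without GST library 3, GST library 4 or GST-PTR1 library 4. The number higher was 2 with library totals, where 5.48% of all genes tested were higher. It was 2 without GST library 3 (1320 of the 16926 genes) and 2 without GST-PTR1 library 4 (7.13% of all genes). Without both of these libraries it was 3 (10.2% of all genes), and the list's median was 0.03. Of 28 genes of mitochondrial transcription and RNA handling, PNPT1, an RNA-degrading enzyme, was higher (0.63, adjusted p = 0.0176, edgeR; 0.0564 without GST library 4) and MTERF2, a mitochondrial DNA-binding factor, lower (-1.01, adjusted p = 0.00555, edgeR). MTERF2 was low throughout, at 3.03 ± 0.13 CPM in GST and 1.51 ± 0.23 CPM in GST-PTR1. At an unadjusted p under 0.05, 12 of the 28 genes were higher and 1 lower, where 16.5% and 18.8% of all genes tested were. Log2 fold changes were positive in 25 of the 28 and negative in 3. Their median was 0.20, and 0.11 without GST library 3 and GST-PTR1 library 4.

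Of 11 regulators of respiratory genes, 4 were higher and 0 lower, where 9.15% and 11.4% of all genes tested were. At an unadjusted p under 0.05, 6 were higher and 0 lower, where 16.5% and 18.8% of all genes tested were. HIF1A, the oxygen-sensing factor, had the largest log2 fold change of the members tested and of these genes around the respiratory chain. It measured 49.6, 47.6 and 56.3 CPM in GST libraries 3, 4 and 5, and 127, 145 and 138 CPM in GST-PTR1 libraries 2, 4 and 5 (1.42, SE 0.11, adjusted p = 4.6e-06, edgeR). The groups lay far apart. GABPB1, a subunit of GABP, rose from 40.2 ± 1.46 to 71.4 ± 9.79 CPM (0.83, adjusted p = 6.2e-04, edgeR), and CREB1, a cAMP-responsive factor, by 0.80 (adjusted p = 6.8e-04, edgeR). The median log2 fold change of the 11 was 0.26, and it was 0.36 without GST library 3 and GST-PTR1 library 4. In the pyruvate dehydrogenase and citric acid cycle list, of 21 tested, IDH3A, a subunit of isocitrate dehydrogenase, rose (0.37, adjusted p = 0.0374, edgeR). That call was lost with library totals (adjusted p = 0.280, edgeR), and of the fits with 1 library left out only the one without GST library 5 kept it. PDK2, a kinase that shuts down pyruvate dehydrogenase, fell (-0.48, adjusted p = 0.0141, edgeR), though not without GST-PTR1 library 5 (adjusted p = 0.0652, edgeR). Of 10 redox and uncoupling genes and 5 subunit genes outside the naming rule, among them COX4I1 (0.31, adjusted p = 0.139, edgeR), none passed in either direction. At an unadjusted p under 0.05 edgeR gave 0 higher and 1 lower in the first list, and 1 higher and 0 lower in the second. Of all genes tested, 16.5% were higher and 18.8% lower at that p.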

How the data were processed

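RNA was sequenced from RPMI8226 cells with a strand-specific mRNA kit. The authors deposited raw counts of reads per gene, which featureCounts 1.5.0-p1 assigned to the exons of Ensembl release 75 (GRCh37) on the reverse strand. Reads with more than 1 placement or more than 1 gene were not counted. The submitters' processing notes name hg19, and the aligner is not given in the sources used here. Columns were matched to treatments by name. The numbers they carry differ from those in the sample labels, so libraries were not paired. Symbols were matched by Ensembl identifier for 52181 of the 63677 genes.

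Counts were tested with edgeR 4.0.16 in R 4.3.3 (TMM factors, filterByExpr, glmQLFit, glmQLFTest, Benjamini-Hochberg adjustment, adjusted p under 0.05). Alternatives used DESeq2 1.42.0, limma 3.58.1 (voom), other scalings and filters, and libraries left out. The test was checked on 5 simulated data sets, whose changed genes had larger log2 fold changes than any member and were drawn independently. That check does not cover changes of the members' size or a shift shared by many genes of a library. CPM and RPKM were computed here from the deposited counts, TMM-scaled totals and deposited exon lengths. A count of 0 allows up to 3 counts. No libraries of a treatment differed by less than sampling noise (smallest chi-square per gene 8.37). Genes named are all mitochondrial members, the members past the threshold, the extremes of each complex, isoform pairs and, of other lists, the 3 called genes with the smallest adjusted p. Other genes named were chosen after their values were seen. Members and lists were chosen with earlier results of these data known.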

Additional observations from a re-analysis of the deposited data

How the results depend on the processing

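The members' number higher was 3 with DESeq2's size factors, with scaling without mitochondrial genes, with at least 10 counts in every library, with either other test, with the trend of gene length removed and without GST library 3 and GST-PTR1 library 4. In the last of these fits 10.2% of all genes were higher. The members' number higher was 1 with library totals (5.48% of all genes) and 34 with a filter of at least 1 count in any library (8.25%). It was 0 to 6 when each library was left out in turn, with 0 reached without GST library 4. Counts given here without a share are not set against all genes. Members lower were 0, also with single libraries left out, except in 2 fits. They were 1 with library totals (22.4% of all genes lower) and 2 without GST library 3 and GST-PTR1 library 4 (9.35%). The causes were not tested. The numbers tested in the lists of other genes of the pathway are given above. Of these genes, 19 were higher and 3 lower, where 9.15% and 11.4% of all genes tested were. With library totals they were 8 and 14, where 5.48% and 22.4% of all genes tested were higher and lower. They were 9 to 24 and 3 to 5 with each library left out in turn, ranges not set against the shares of all genes in those fits. Without both libraries named above they were 14 and 6, where 10.2% and 9.35% of all genes tested were higher and lower. That pair's removal moved the median log2 fold change to 0.00101 over all members, -0.000804 over nuclear members, -0.037 in complex I, -0.0221 in complex II, 0.0275 in complex III, 0.0389 in complex IV and -0.0288 in complex V. With single libraries left out, the median over all members ranged from 0.10, without GST-PTR1 library 4, to 0.39. The difference in the mitochondrial share of counts ranged from -0.45 to 0.59 percentage points with single libraries left out.

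The replicate block could be fitted only on 4 libraries, those numbered 4 and 5 in both treatments. It called 9 members higher (9.24% of all genes tested), and the same 4 libraries with no replicate block called 15 (10.3%). Deviations of same-numbered libraries did not go together (r = -0.03 across 16926 genes, which are not independent replicates), so the numbers were not taken to pair samples. Of the values of single named genes under the alternatives, 554 kept their direction and side of the threshold, 44 lost the threshold, 19 passed it and 7 moved with a change of sign, and 0 called values reversed. The removal of the length trend, the block, and the joint removal of both libraries were chosen after seeing the data. NDUFA7 and ATP5MGL rest on few counts.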
